A study of Homo sapiens with 2 samples.

Results

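DNA repair and checkpoint genes were compared between PC3 cells given 10 µM fluphenazine and PC3 cells given the solvent DMSO, with 1 array for each treatment. PC3 is a human cell line that grew from prostate cancer cells of a bone metastasis, and fluphenazine is a phenothiazine antipsychotic that blocks dopamine receptors. Both groups came from the same line and growth medium with serum, and total RNA was measured. How long the cells were treated is not stated in the labels. The genes were chosen by name: 38 genes of homologous recombination, the Fanconi pathway, mismatch and uracil repair, single-strand DNA binding and the damage checkpoint. A gene was taken through every probe set whose annotation named it alone, which gave 33 genes with 63 probe sets, of 18392 genes in all. BRCA2, FANCA, FANCD2, PMS2 and ATRIP were not analysed here.

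Repair of a broken or crosslinked chromosome passes through a series of protein machines. Sensor kinases recognise the damage and halt the cell cycle, nucleases and helicases trim the DNA end, the replication protein A complex (RPA) coats the exposed strand, and recombination proteins copy the lost sequence from the sister chromatid. The Fanconi proteins unhook crosslinks that block replication forks. Many genes of these pathways are transcribed mainly in cells that replicate their DNA, under the control of E2F transcription factors.

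Each value is a log2 signal, on which a step of 1 is a doubling, and each difference is the value with fluphenazine minus the value with DMSO. Where a gene had several probe sets, the brightest was taken. A gene was counted when its value on the brighter array was at least 6.19, the median of such brighter values. This floor kept 31 of the 33 genes and 9196 genes in all. The recombination genes XRCC2 and XRCC3 lay under it. FANCE and CLSPN passed it through the DMSO array alone, so a lower value with fluphenazine was partly built into their selection. With 1 array a treatment there was no spread between cultures, and no test was made. To describe the noise inside an array pair, the spread among probe sets of the same gene was pooled, which gave an SD of 0.13 over 3668 genes with several probe sets above the floor. The corresponding SD was 0.14 for the 10 repair genes with several such probe sets.

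All 4 epithelial markers checked were above the floor. KRT18, a keratin of simple epithelium, was at 12.55 with fluphenazine and 12.67 with DMSO, and the adhesion protein EPCAM was at 12.72 with fluphenazine and 12.65 with DMSO. The keratin KRT8 was at 9.28 with fluphenazine and 9.70 with DMSO, a difference of -0.42, and the junction protein CDH1 differed by 0.10. Of 6 markers of blood, endothelial and fibroblast cells, 5 lay under the floor on both arrays, PTPRC, CD3E, VWF, COL1A2 and PDGFRA. The exception was the endothelial marker PECAM1, at 8.49 with fluphenazine and 8.76 with DMSO. The androgen-regulated KLK3, at 6.90 with fluphenazine and 6.93 with DMSO, also lay above it.

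Most repair genes were slightly lower with fluphenazine, and none of them differed strongly. Of the 31 genes above the floor, 23 were lower and 8 were higher, while 51.8% of all genes above the floor were lower and 48.2% higher. The median difference of the repair genes was -0.10, against -0.01 for all genes above the floor. The differences ranged from -0.32 to 0.24. Only FANCE and RAD54L were lower by at least 1.2-fold, which 4.69% of all genes were, and no repair gene was higher by that much, against 4.84% of all genes. None reached 1.5-fold in either direction, against 0.576% of all genes. Lower differences larger in size than the pooled SD of 0.13 were found for 13 of the 31 genes, against 19.6% of all genes, and higher ones for 2, against 18% of all genes. The other 16 genes lay within that SD. FANCE and CLSPN, which passed the floor through the DMSO array alone, are among the 23 lower genes and among the 13. The remaining 29 genes passed it on both arrays.

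**Figure D1:**
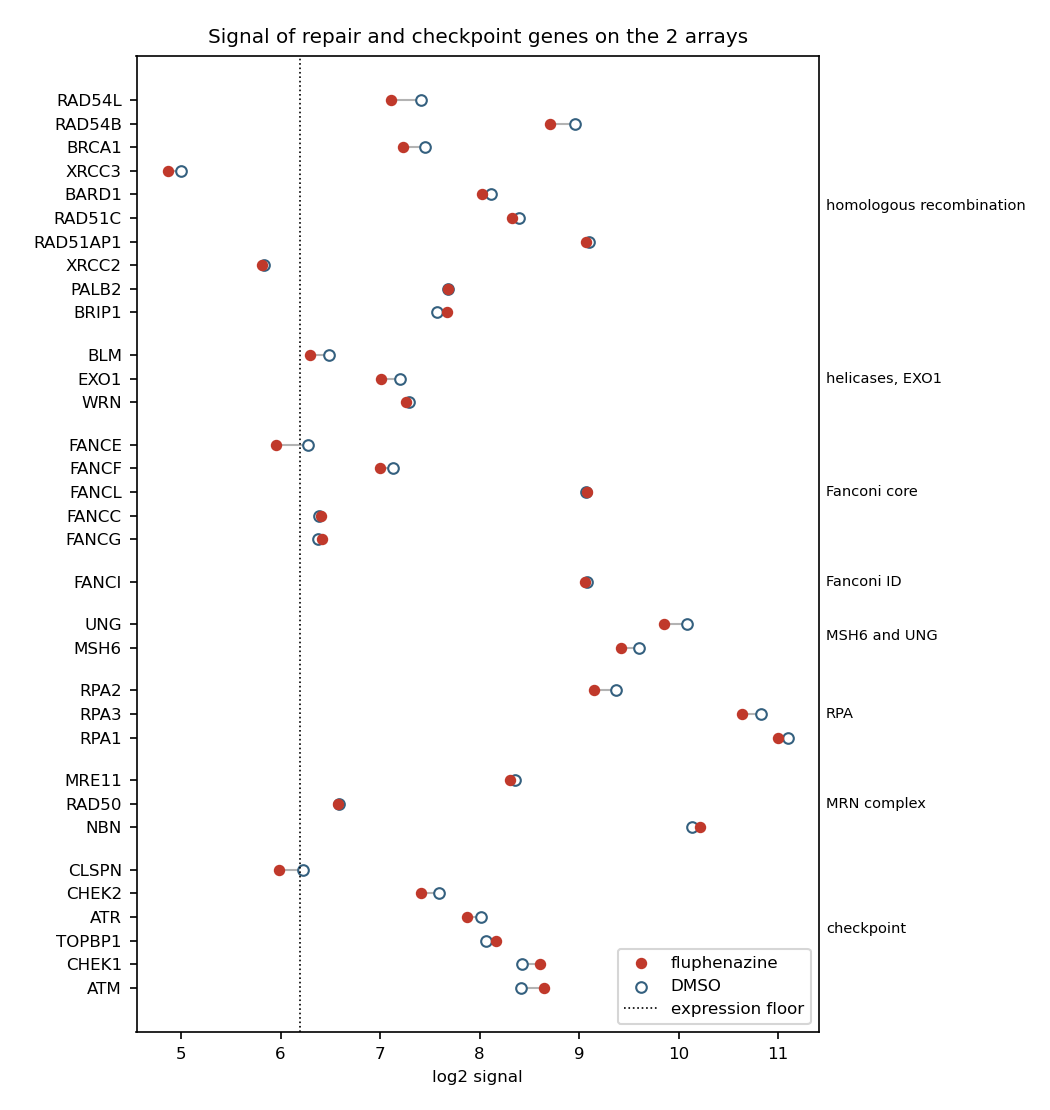
Log2 signal of each repair and checkpoint gene (x axis) at its brightest probe set, with fluphenazine (filled red) and DMSO (open blue), 1 array each, grouped by role. The pairs lie close together on a scale that runs over several log2 units, and XRCC2 and XRCC3 lie left of the floor of 6.19.

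Every probe set was also counted, which takes in the brightest ones of the 31 genes again and so is no independent check. The share of all probe sets that were lower was not counted. Of the 46 probe sets above the floor, 33 were lower and 13 were higher, with a median of -0.09. In 10 genes several probe sets lay above the floor. All of them were lower for RAD51C, BARD1, FANCF, MSH6, RPA1 and ATR, and all were higher for ATM. They pointed both ways for CHEK1, FANCI and NBN. The other 21 genes had 1 probe set above the floor each.

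Poly-A controls, which are bacterial RNAs mixed in ahead of the labelling step, were also lower on the fluphenazine array, in 24 of 24 probe sets with a median difference of -0.22. Controls for the hybridization step were lower in 14 of 18 probe sets, with a median difference of -0.07. Their part in the lower values of the repair genes was not tested. Signal level was divided into 4 equal classes over all genes above the floor. In the dimmest class 56.6% of all genes were lower, with a median of -0.03, and in the brightest 47.8% were, with a median of 0.01. The repair genes had medians of -0.16 (8 of 10 lower), -0.07 (7 of 9), -0.03 (5 of 8) and -0.14 (3 of 4) from the dimmest class to the brightest, below the median of all genes in each class. The dimmest class holds FANCE and CLSPN, which passed the floor through the DMSO array alone. Lower values of both genes were partly built into their selection, and the median of that class without them was not computed.

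**Figure D2:**
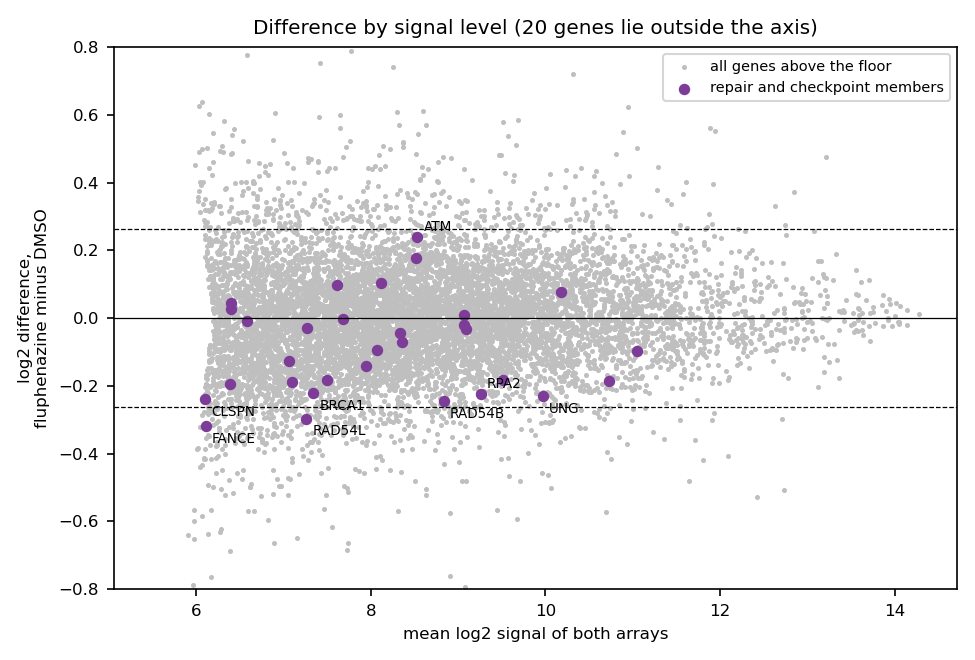
Difference of genes above the floor (y axis, log2 fluphenazine minus DMSO) against their mean log2 signal on the arrays (x axis), with all genes in grey (20 of them lie beyond the axis limit of 0.8 and are not drawn), the 31 repair and checkpoint genes in purple and dashed lines at 1.2-fold. The purple points lie mostly below 0 at every signal level, within the cloud of the other genes, and FANCE and RAD54L are the ones beyond the lower dashed line.

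Promoter sequences were read for features that the choice of genes had not used. RefSeq promoters of build GRCh38.p14, from 250 bases before to 50 bases after the annotated start, were matched for 25 of the 31 genes. They were searched on both strands for the E2F motifs TTCCCGC, TTTGGCGC and TTCGCGC. At least 1 of these was found in 14 of the 25 repair promoters (56%), against 9.16% of all 27305 promoters of that length and 15.7% of the promoters of genes above the floor. The 14 promoters held 16 matches, of which 15 began no more than 100 bases before the start site. Of the 16 matches, 3 overlapped the Sp1 motif GGGCGG, and none overlapped another E2F match. The 5 promoters below are those of both genes past 1.2-fold (FANCE and RAD54L), of a helicase gene with 2 matches (BLM), of a gene with a match that was higher with fluphenazine (BRIP1), and of the gene with the highest difference (ATM), which held none. They lie on the plus strand at chr6:35452088-35452387 (FANCE), chr1:46247438-46247737 (RAD54L), chr15:90717096-90717395 (BLM) and chr11:108222817-108223116 (ATM), and on the minus strand at chr17:61863479-61863778 (BRIP1). Capitals mark the E2F matches on either strand.
FANCE: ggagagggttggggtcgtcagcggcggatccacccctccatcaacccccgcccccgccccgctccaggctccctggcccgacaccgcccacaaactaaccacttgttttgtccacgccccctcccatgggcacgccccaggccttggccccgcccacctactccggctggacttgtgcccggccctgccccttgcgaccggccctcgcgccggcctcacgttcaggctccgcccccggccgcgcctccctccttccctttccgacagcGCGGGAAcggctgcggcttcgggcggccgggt
RAD54L: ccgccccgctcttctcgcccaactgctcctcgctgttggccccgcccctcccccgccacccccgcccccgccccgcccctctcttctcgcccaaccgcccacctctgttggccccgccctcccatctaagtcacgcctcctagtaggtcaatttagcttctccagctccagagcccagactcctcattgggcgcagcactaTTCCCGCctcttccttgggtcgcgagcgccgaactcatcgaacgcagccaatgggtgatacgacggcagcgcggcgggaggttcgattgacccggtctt
BLM: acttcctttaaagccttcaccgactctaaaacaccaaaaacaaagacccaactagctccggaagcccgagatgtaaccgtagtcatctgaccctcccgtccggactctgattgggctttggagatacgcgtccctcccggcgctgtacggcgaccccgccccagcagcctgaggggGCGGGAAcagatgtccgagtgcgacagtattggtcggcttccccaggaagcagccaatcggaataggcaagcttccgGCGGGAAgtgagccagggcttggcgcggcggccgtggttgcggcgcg
BRIP1: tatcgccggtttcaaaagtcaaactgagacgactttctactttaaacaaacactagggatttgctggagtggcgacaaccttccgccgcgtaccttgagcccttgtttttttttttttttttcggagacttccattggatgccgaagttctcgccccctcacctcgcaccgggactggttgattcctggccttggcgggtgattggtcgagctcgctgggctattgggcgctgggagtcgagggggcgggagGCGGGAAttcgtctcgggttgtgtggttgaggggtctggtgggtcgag
ATM: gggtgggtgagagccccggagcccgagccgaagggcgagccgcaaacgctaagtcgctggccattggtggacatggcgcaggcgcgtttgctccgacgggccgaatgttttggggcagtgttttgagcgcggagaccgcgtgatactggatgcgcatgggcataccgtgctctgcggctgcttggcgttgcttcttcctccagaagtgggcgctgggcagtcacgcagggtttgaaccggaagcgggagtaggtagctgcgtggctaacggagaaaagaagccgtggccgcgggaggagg

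Genes with and without an E2F match were both mostly lower. Of the 14 genes with an E2F match 9 were lower, with a median of -0.11, and of the 11 without one 9 were lower, with a median of -0.07. The 9 lower genes with a match include FANCE and CLSPN, which passed the floor through the DMSO array alone. Their lower values were partly built into their selection, and the groups were not compared without them. Those with a match that were higher were BRIP1, TOPBP1 and the Fanconi core genes FANCC, FANCG and FANCL. Over all genes above the floor, 53.2% of those with a match were lower, against 51.6% of those without one, with medians of -0.01 in both. The CCAAT motif bound by NF-Y was found in 14 of the 25 repair promoters (56%), against 35.7% of all promoters. It was present in 37.9% of promoters of genes above the floor. Of the 14 genes with it 11 were lower, with a median of -0.11, and of the other 11 genes 7 were lower, with a median of -0.07. CLSPN is among the lower genes with CCAAT and FANCE among the lower ones without it. Among all genes above the floor, 53.9% of those with CCAAT were lower, against 50.6% of those without it. The motifs TTTGAA and TTCGAA, forms of the CHR element of genes active in mitosis, were found in 3 of the 25 (12%), against 16.6% of all promoters and 11.1% of promoters of genes above the floor. These 3 genes, ATM, BRIP1 and FANCC, were higher at their brightest probe sets, and 54.0% of all genes above the floor with such a match were lower. With averaged probe sets ATM was at 0.05, BRIP1 at -0.001 and FANCC at 0.10, each within the SD of 0.13, so their direction was uncertain. Motifs of the stress factor ATF4, searched as TGATGNAAT and TGATGCAA, were found in 0 of the 25, against 1.68% of all promoters. The Sp1 motif was found in 21 of the 25 (84%), against 72.1% of promoters of genes above the floor. A match of letters shows no binding.

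Homologous recombination genes were lower for 7 of the 8 that passed the floor, against 51.8% of all genes above it, and their median was -0.08. Of these 7 genes, BARD1, RAD51C, RAD51AP1 and PALB2 lay within the pooled SD of 0.13. RAD54L, a motor protein that helps the recombinase pair the broken end with its template, was at 7.11 with fluphenazine and 7.41 with DMSO, 1.23-fold lower. Its difference of -0.30 stood at the 3.33rd percentile of all genes above the floor. Its relative RAD54B was at 8.71 with fluphenazine and 8.96 with DMSO, just short of 1.2-fold. Both rested on 1 probe set each.

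BRCA1, a ubiquitin ligase that promotes end resection and loading of the recombinase, was at 7.23 with fluphenazine and 7.45 with DMSO, 1.17-fold lower. Its other probe set, under the floor, gave -0.27. BARD1, the obligate partner of BRCA1, differed less, at 8.02 with fluphenazine and 8.12 with DMSO. The other probe set of BARD1 above the floor gave -0.11, and the one under it gave -0.34. PALB2, which bridges BRCA1 and BRCA2, was at 7.68 with fluphenazine and 7.69 with DMSO.

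The remaining recombination genes above the floor differed by 0.10 or less in size. RAD51C, a paralog of the recombinase, gave -0.07 at each of its probe sets. RAD51AP1, which stimulates the recombinase, was at 9.07 with fluphenazine and 9.10 with DMSO. BRIP1, the helicase partner of BRCA1, was the exception in direction, at 7.67 with fluphenazine and 7.57 with DMSO. Its dimmer probe set, under the floor, gave -0.10, and the mean of both was 0.00. The paralogs XRCC2 and XRCC3, under the floor, gave -0.01 and -0.14.

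All 3 genes of the helicase and nuclease group were lower, against 51.8% of all genes above the floor, with a median of -0.19. BLM, a RecQ helicase that dissolves joined recombination intermediates, was at 6.29 with fluphenazine and 6.49 with DMSO. EXO1, an exonuclease of end resection and mismatch repair, was at 7.01 with fluphenazine and 7.20 with DMSO. Each of these was 1.14-fold lower and rested on 1 probe set. WRN, the RecQ helicase lost in Werner syndrome, was at 7.26 with fluphenazine and 7.29 with DMSO, within the spread of probe sets.

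Members of the Fanconi core complex, the ubiquitin ligase of crosslink repair, went both ways. Of 5 genes 2 were lower, against 51.8% of all genes above the floor, and the median was 0.01. FANCE, which links the core complex to its substrate, had the lowest difference of all the repair genes, -0.32. It was at 5.95 with fluphenazine, under the floor, and at 6.27 with DMSO, 1.25-fold lower and at the 2.65th percentile of all genes. FANCF, an adaptor of the core complex, was lower at both of its probe sets, by 0.13 and 0.09. FANCL, the catalytic subunit, was at 9.08 with fluphenazine and 9.07 with DMSO. FANCC and FANCG, further subunits, were higher by 0.03 and 0.05, well within the spread of probe sets.

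FANCI, one of the proteins that the core complex ubiquitinates, showed how far probe sets of a gene can part. Its brightest probe set was at 9.06 with fluphenazine and 9.08 with DMSO. A second was at 7.63 with fluphenazine and 7.98 with DMSO, a difference of -0.35, and the third gave 0.04. Their mean was -0.11.

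**Figure D3:**
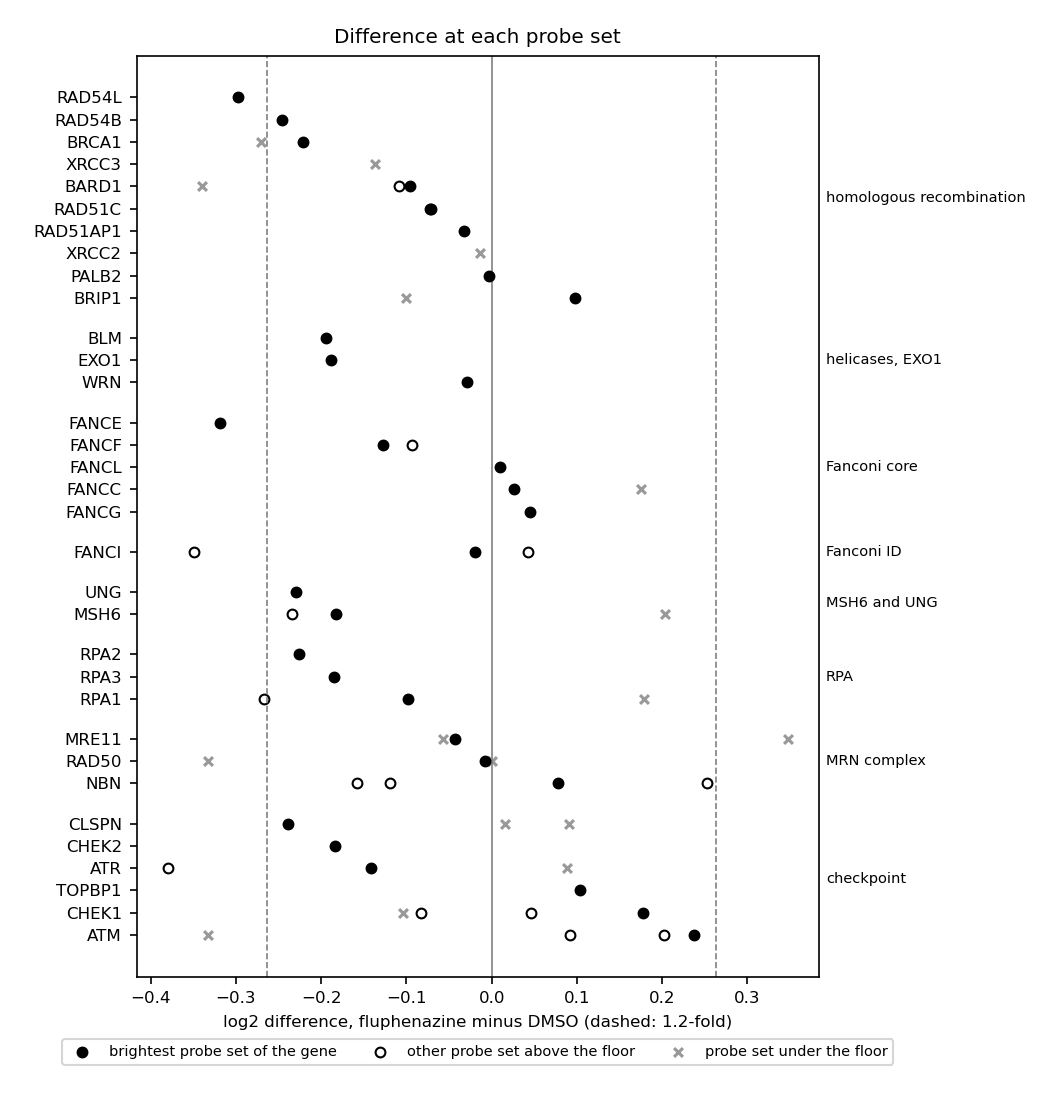
Log2 difference, fluphenazine minus DMSO, at each of the 63 probe sets (x axis) by gene and role. Filled points are the brightest probe set of a gene, open points others above the floor and crosses those under it, with dashed lines at 1.2-fold. The 3 open and filled points of ATM lie right of 0 and the open and filled points of ATR lie left of it. The cross of each of these genes lies on the other side. The open and filled points of NBN, CHEK1 and FANCI fall on both sides.

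The members of mismatch and uracil repair were both lower, against 51.8% of all genes above the floor. MSH6, a subunit of the mismatch sensor, was at 9.42 with fluphenazine and 9.60 with DMSO, 1.14-fold lower. A second probe set of MSH6 above the floor gave -0.23, and the third, far under the floor, gave 0.20. UNG, the glycosylase that removes uracil from DNA, was at 9.86 with fluphenazine and 10.09 with DMSO, 1.17-fold lower on its single probe set.

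All 3 subunits of RPA were lower, against 51.8% of all genes above the floor, with a median of -0.18. RPA2, the subunit that checkpoint kinases phosphorylate, was at 9.15 with fluphenazine and 9.37 with DMSO, 1.17-fold lower. RPA3, the smallest subunit, was at 10.64 with fluphenazine and 10.82 with DMSO, 1.14-fold lower. RPA1, the large DNA-binding subunit, was at 11.00 with fluphenazine and 11.10 with DMSO at its brightest probe set. A second probe set of RPA1 was at 9.49 with fluphenazine and 9.76 with DMSO, a difference of -0.27. The third, far under the floor, gave 0.18.

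Genes of the MRN complex, which binds broken ends and activates ATM, differed little at their brightest probe sets. MRE11, its nuclease, was at 8.31 with fluphenazine and 8.35 with DMSO. Its dimmest probe set gave 0.35, far under the floor, which turned the mean of its 3 probe sets to 0.08. RAD50, its tethering ATPase, was at 6.58 with fluphenazine and 6.59 with DMSO. Of its probe sets under the floor 1 gave 0.00 and the other -0.33, and the mean of all 3 was -0.11. NBN, the subunit that recruits ATM, was at 10.22 with fluphenazine and 10.14 with DMSO. The 4 probe sets of NBN ranged from -0.16 to 0.25, so no direction could be read for it.

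Checkpoint genes were divided, with 3 of 6 lower, against 51.8% of all genes above the floor, and a median of -0.02. The apical kinases lay on opposite sides. ATM, the kinase activated by double-strand breaks, was at 8.65 with fluphenazine and 8.41 with DMSO, 1.18-fold higher, at the 94.0th percentile of all genes. Its other probe sets above the floor gave 0.20 and 0.09, and a dim one under the floor gave -0.33. The mean of all 4 was 0.05. The brightest probe set of ATM is of a design that can pair with several transcripts. Without such probe sets ATM stood at 0.20.

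ATR, the kinase activated by single-stranded DNA at stalled forks, was at 7.87 with fluphenazine and 8.01 with DMSO. A second probe set of ATR was at 6.86 with fluphenazine and 7.24 with DMSO, a difference of -0.38. The third, far under the floor, gave 0.09. TOPBP1, which activates ATR, was at 8.16 with fluphenazine and 8.06 with DMSO. CLSPN, the adaptor that brings CHEK1 to ATR, was at 5.99 with fluphenazine, under the floor, and 6.23 with DMSO. The 2 dimmer probe sets of CLSPN gave 0.02 and 0.09, and the mean over all 3 was -0.04.

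At their brightest probe sets the effector kinases also lay on opposite sides. CHEK2, which acts downstream of ATM, was at 7.41 with fluphenazine and 7.60 with DMSO, 1.14-fold lower on 1 probe set. CHEK1, which acts downstream of ATR, was at 8.60 with fluphenazine and 8.43 with DMSO, 1.13-fold higher. Its other probe sets above the floor gave 0.05 and -0.08, and the mean of all its probe sets was 0.01, so no direction could be read for CHEK1. The direction of the checkpoint group therefore turned with the choice of genes: its median was 0.10 when the floor was set on the mean of the arrays, which left CLSPN out.

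Repair pathways beyond these genes were compared through lists chosen by textbook role. Over 98 genes above the floor in 8 further lists, 60 were lower (61.2%, against 51.8% of all genes), with a median of -0.05. Of the 98, 4 were lower and 1 was higher by at least 1.2-fold, where 9.53% of all genes passed in either direction. Further Fanconi genes had a median of -0.11, with 7 of 10 lower. FAAP100, a core complex partner, was at 6.14 with fluphenazine, under the floor, and 6.37 with DMSO, and MAD2L2, a polymerase subunit, was at -0.15. ERCC4, a crosslink nuclease, was at 0.17, with a mean of 0.05 over its 2 probe sets. The mean of the 3 probe sets of FAAP100 was 0.11, and with averaged probe sets the median of the list was -0.06. Further recombination genes had a median of -0.03, with 7 of 11 lower. Among them PSMC3IP, a recombinase cofactor, was at 6.88 with fluphenazine and 7.18 with DMSO. POLQ, the polymerase of microhomology end joining, was at 6.97 with fluphenazine and 7.24 with DMSO. Each was at least 1.2-fold lower at its brightest probe set. The mean over 2 probe sets was -0.15 for PSMC3IP and -0.19 for POLQ, both short of 1.2-fold. The helicase RECQL was at 0.12.

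The excision pathways had medians slightly under the -0.01 of all genes above the floor, of which 51.8% were lower. Base excision genes were lower in 12 of 17, with a median of -0.05, led by the glycosylase NEIL2 at -0.32 and the scaffold XRCC1 at -0.25, while the endonuclease APEX2 was at 0.08. NEIL2 was at 5.89 with fluphenazine and 6.21 with DMSO, and XRCC1 was at 6.03 with fluphenazine and 6.29 with DMSO. Both passed the floor through the DMSO array alone. With averaged probe sets the median of the base excision genes was -0.09. Nucleotide excision genes were lower in 11 of 17, with a median of -0.06. GTF2H4, of the TFIIH complex, was at -0.24, the damage sensor DDB2 at -0.19 and ERCC8, of transcription-coupled repair, at 0.20. ERCC8 was at 6.36 with fluphenazine and 6.16 with DMSO, and passed the floor through the fluphenazine array alone. With averaged probe sets the median of the list was -0.12. Of 3 further mismatch repair genes 1 was lower, MSH3 at -0.12, with PMS1 at 0.02 and MLH3 at 0.07.

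End joining genes were nearly even, with 6 of 11 lower and a median of -0.01, or 0.04 with averaged probe sets. The ligase cofactor XRCC4 was at 7.23 with fluphenazine and 7.51 with DMSO, with a mean of -0.02 over its 4 probe sets. The polymerase POLM was at -0.18 and the ligase LIG4 at 0.18. Further genes of damage signalling were lower in 13 of 19, against 51.8% of all genes, with a median of -0.05. TP53BP1, which limits end resection, was at 8.76 with fluphenazine and 9.03 with DMSO, and RAD9A, of the clamp that marks damage, was at -0.24. UIMC1 (RAP80), which targets BRCA1 to ubiquitin chains, was at 0.26.

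Translesion and direct reversal genes had the highest median of the 8 further lists, 0.08, with 3 of 10 lower, against 51.8% of all genes. POLK, a translesion polymerase, was at 7.95 with fluphenazine and 7.66 with DMSO, 1.23-fold higher. The mean of its 2 probe sets was 0.03, and with averaged probe sets the list's median was -0.04. MGMT, which removes alkyl groups from guanine, was at -0.16, and the demethylase ALKBH2 at -0.12.

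Genes of proliferating cells were mostly lower as well, and their median lay below that of the repair genes. That difference was not tested. Of 19 such genes 16 were lower, against 51.8% of all genes above the floor, and their median was -0.17. By at least 1.2-fold, 7 of the 19 were lower, against 4.69% of all genes. Among the 7 were MCM2, MCM3, MCM5 and MCM7, subunits of the same helicase. The helicase subunit MCM2 was at 8.54 with fluphenazine and 8.93 with DMSO, and MCM5 differed by -0.32. The proliferation antigen MKI67 was at -0.27 and the transcription factor E2F1 at -0.27. With averaged probe sets MKI67 was at -0.19, E2F1 at -0.15, the topoisomerase TOP2A at -0.15 and MCM7 at -0.24, all short of 1.2-fold. MCM5 at -0.33 and cyclin CCNE2 at -0.31 were past it, and the median of the list was -0.15. PCNA, the sliding clamp of replication, was at -0.03, and cyclin CCNE1 was at 0.09. The share of replicating cells was not measured, and its part in the lower values of the repair genes was not tested. In bulk RNA, fewer replicating cells and less RNA in each of them cannot be told apart.

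**Figure D4:**
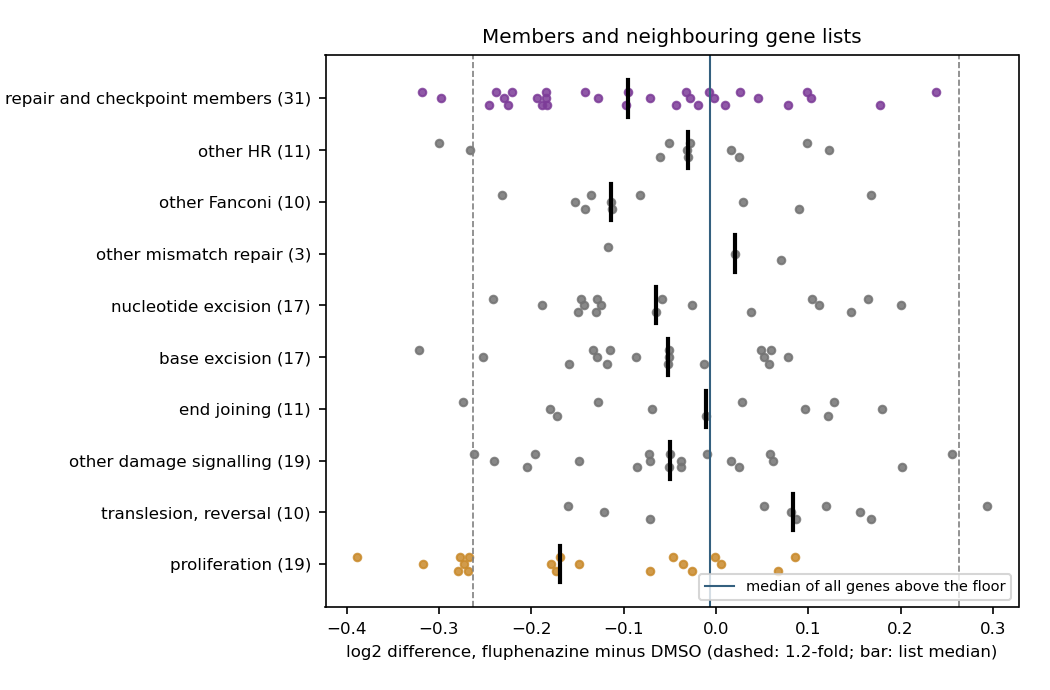
Log2 difference of each gene above the floor (points) in the repair and checkpoint genes, 8 further repair lists and proliferation genes, with the number of genes in brackets. Black bars mark list medians, the blue line the median of all genes (-0.01) and dashed lines 1.2-fold. The repair genes centre at -0.10, proliferation genes at -0.17 and translesion and direct reversal genes at 0.08, and the points of all lists overlap.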

How the data were processed

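Gene expression was measured on 2 arrays. The platform annotation, dated 2016, named 1 gene for 37151 of 47693 probe sets. Symbols were updated through RefSeq gene identifiers. A further 7 probe sets that name a listed gene together with others were left out. The authors' deposited values are log2 signals, judged from their range of 1.60 to 14.28. Per the submitters' processing notes, the tools were RMA, Transcriptome Analysis Console 3.1 and Affymetrix Expression Console 1.4, whose roles are not stated. After sorting, the columns differed by at most 0.13, so a change of total RNA cannot be seen. Signals of different probe sets are not comparable with each other.

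Differences, medians and counts were computed in Python 3.11.15 with numpy 2.4.6 and pandas 2.3.3, and the summaries were tested on simulated data. The number of arrays limits the precision. Alternatives were 3 other scalings (quantile, median, and loess with statsmodels 0.14.6), averaged probe sets, 3 other floors, a 1.5-fold threshold and, added after seeing the data, leaving out probe sets named _x_at. Named genes were those past 1.2-fold, all other repair genes above the floor, and 2 lower and 1 higher gene of each further list. The proliferation list was described by further members, chosen after their values were seen. The genes, lists and rules were chosen with earlier results of these data known. No label or header names a genome build, and coordinates are those of RefSeq promoters.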

Additional observations from a re-analysis of the deposited data

How the results depend on the processing

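Over the alternatives that kept 29 or more of the repair genes, between 21 and 25 of them were lower with fluphenazine, and the median lay between -0.11 and -0.08. The number of repair genes kept ran from 29 to 33. Of all genes, between 48.9% (median scaling) and 55.3% (averaged probe sets) were lower in these alternatives. The other 3 scalings gave 21 of 31 lower, since PALB2 and RAD50, whose differences were the smallest, changed sign. With the stricter floor, which kept 12 repair genes, 8 were lower and 4 higher, none passed 1.2-fold (0 lower), and the median was -0.06. Under that floor 48.6% of all genes were lower. At 1.5-fold 0 repair genes were lower. The checkpoint median was 0.21 over 2 genes with the stricter floor and 0.10 over 5 with the floor on the mean. Of all genes, 1532 were lower and 1557 higher by 1.2-fold without a floor, 133 and 197 with the stricter floor, and 27 and 26 at 1.5-fold, against 431 and 445 in the setting reported. With averaged probe sets, translesion and direct reversal genes turned to a median of -0.043 and end joining genes to 0.04, other Fanconi, base excision and nucleotide excision genes moved to -0.06, -0.09 and -0.12, and ATM, CHEK1 and CLSPN moved to 0.05, 0.01 and -0.04. Without _x_at probe sets the end joining median was 0.03. The cause was not tested. No paired analysis was possible because each treatment had 1 array and the result comes from no test.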
